A study of Mus musculus with 4 samples.

Results

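Plasminogen activators, matrix metalloproteases and the inhibitors that hold them in check were followed in freshly isolated mouse glomeruli, the capillary tufts where the kidney filters blood. Rows of the deposited expression table were matched by Ensembl ID to 9 gene symbols, and all 9 were found among 22809 genes. They were the serine proteases Plau and Plat, the receptor Plaur, the serine protease inhibitor Serpine2, the metalloproteases Mmp2 and Mmp14, and the tissue inhibitors of metalloproteases Timp1, Timp2 and Timp3. RNA sequencing of poly(A) RNA covered 2 libraries labelled HDAC KO, a podocyte-specific knockout which the series' title names as Hdac1 and Hdac2 deficient, and 2 libraries labelled Control (WT) with no treatment. All mice were 3 weeks old, and each library pooled glomeruli of 2 mice. The alleles and the driver of the podocyte-specific deletion were not given in the sources used here, and no agent was given to either group.

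Plasminogen activators are secreted serine proteases that cut the zymogen plasminogen to plasmin, which digests fibrin and matrix proteins and can activate some metalloproteases. Matrix metalloproteases are zinc enzymes that cleave collagens and other matrix proteins, and TIMPs block them by occupying the active site. Glomerular cells rest on or around a basement membrane made of substrates of these enzymes, and the balance of activators to inhibitors is widely studied in glomerular scarring.

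Values were TPM, that is reads per unit of gene length, with a common total for every library, so levels can be compared between genes. The whole reads recovered from them numbered between 12876939 and 20943138 per library. Mitochondrial transcripts made 40.8% and 38.7% of TPM in the KO-labelled libraries and 40.2% and 46.5% in the controls. Genes at 0 numbered 252 and 85 in the KO-labelled libraries and 885 and 329 in the controls, the most in control replicate 1. Hdac1 was at 22.9 and 22.5 TPM in the KO-labelled libraries and at 19.3 and 18.6 TPM in the controls, and Hdac2 was at 23.5 and 20.9 TPM against 20.2 and 24.1 TPM. Neither target transcript was clearly lower in the KO-labelled group, and whole glomeruli also hold cells that the deletion spares. These transcripts therefore do not check the labels, and every direction given rests on the labels. All 7 podocyte markers were detected, with a sum of 105 and 275 TPM in the KO-labelled libraries and 320 and 717 TPM in the controls. Proximal tubule transcripts, from cells outside the glomerulus, were present in every library. Kap, an androgen-regulated tubule gene, was at 1004 and 1202 TPM in the KO-labelled libraries and at 31062 and 987 TPM in the controls. In such bulk samples, fewer cells of a type and less RNA per cell cannot be told apart.

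Upstream sequences are shown first for 4 genes whose levels did not overlap between the groups, 3 of them higher (Plaur, Mmp14, Timp1) and Timp3 lower, so that their start regions can be compared. RefSeq promoters for the build GRCm38.p6 were matched for 6 of the 9 genes, all but Plau, Plat and Mmp2. Each line gives the 250 bases before the RefSeq start site, 5′ to 3′ on the coding strand, which is the plus strand for all 4. Capitals mark TGAGTCA (the AP-1 motif), GGGCGG (the GC box) and AGGAAG (an ETS motif), each on either strand. Windows lie at chr7:24462233-24462482 for Plaur, chr14:54431348-54431597 for Mmp14, chrX:20869916-20870165 for Timp1 and chr10:86300162-86300411 for Timp3. RefSeq starts can differ from the GENCODE gene bounds given below, and the end of the Timp3 window lies past its GENCODE start at 86300372.
Plaur: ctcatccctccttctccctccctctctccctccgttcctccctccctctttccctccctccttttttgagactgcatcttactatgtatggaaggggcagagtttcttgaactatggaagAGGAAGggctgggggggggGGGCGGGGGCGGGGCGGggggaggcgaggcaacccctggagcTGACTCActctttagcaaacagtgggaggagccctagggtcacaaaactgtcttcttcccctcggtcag
Mmp14: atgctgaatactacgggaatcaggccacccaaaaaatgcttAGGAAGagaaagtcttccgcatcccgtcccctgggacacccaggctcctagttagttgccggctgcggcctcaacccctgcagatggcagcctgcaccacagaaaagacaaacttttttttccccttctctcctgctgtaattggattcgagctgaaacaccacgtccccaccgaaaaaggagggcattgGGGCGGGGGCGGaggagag
Timp1: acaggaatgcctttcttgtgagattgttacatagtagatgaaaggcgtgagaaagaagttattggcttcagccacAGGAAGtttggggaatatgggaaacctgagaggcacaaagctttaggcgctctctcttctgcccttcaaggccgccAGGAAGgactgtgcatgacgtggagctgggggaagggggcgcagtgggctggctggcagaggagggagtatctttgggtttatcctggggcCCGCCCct
Timp3: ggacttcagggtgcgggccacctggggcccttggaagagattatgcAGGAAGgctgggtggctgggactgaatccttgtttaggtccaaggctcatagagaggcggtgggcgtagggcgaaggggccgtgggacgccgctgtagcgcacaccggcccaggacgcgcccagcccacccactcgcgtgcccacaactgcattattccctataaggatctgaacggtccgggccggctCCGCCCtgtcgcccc

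Of the 6 windows, that of Plaur held TGAGTCA, read as TGACTCA on the printed strand, and 4.45% of the 32536 distinct windows of the same length in the table hold it. GGGCGG was in all 6 windows, with 3 copies in Plaur, 2 in Mmp14, 6 in Serpine2 and 1 each in Timp1, Timp2 and Timp3, beside 33.0% of all windows with at least 1 copy. AGGAAG was in 5 of 6, with 2 copies in Timp1 and none in Timp2, beside 29.6% of all windows. Copies of a motif that overlap each other were counted separately, and no copies of different motifs overlapped in these windows. The counts describe letters in these windows only. The Serpine2 and Timp2 windows lie inside the GENCODE bounds of those genes. The GC content was 59.6% for Plaur, 55.2% for Mmp14, 54.4% for Timp1 and 65.6% for Timp3, against a median of 52.4% over all windows.

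The 9 genes summed to nearly the same TPM within each group, 1334 and 1364 TPM in the KO-labelled libraries and 1072 and 1056 TPM in the controls, but the makeup of the sum differed. In the KO-labelled libraries Plau was the most abundant, and Timp3 came next. The order after them was Plat, Timp2, Mmp14, Timp1, Plaur, Serpine2 and Mmp2, and the 2 values overlapped those of the gene before for Mmp14, Plaur and Mmp2. In the controls Timp3 was the most abundant, before Plau, Plat, Timp2, Serpine2, Mmp14, Mmp2, Plaur and Timp1. There Mmp14, Mmp2 and Plaur overlapped the gene before them in that order.

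**Figure D1:**
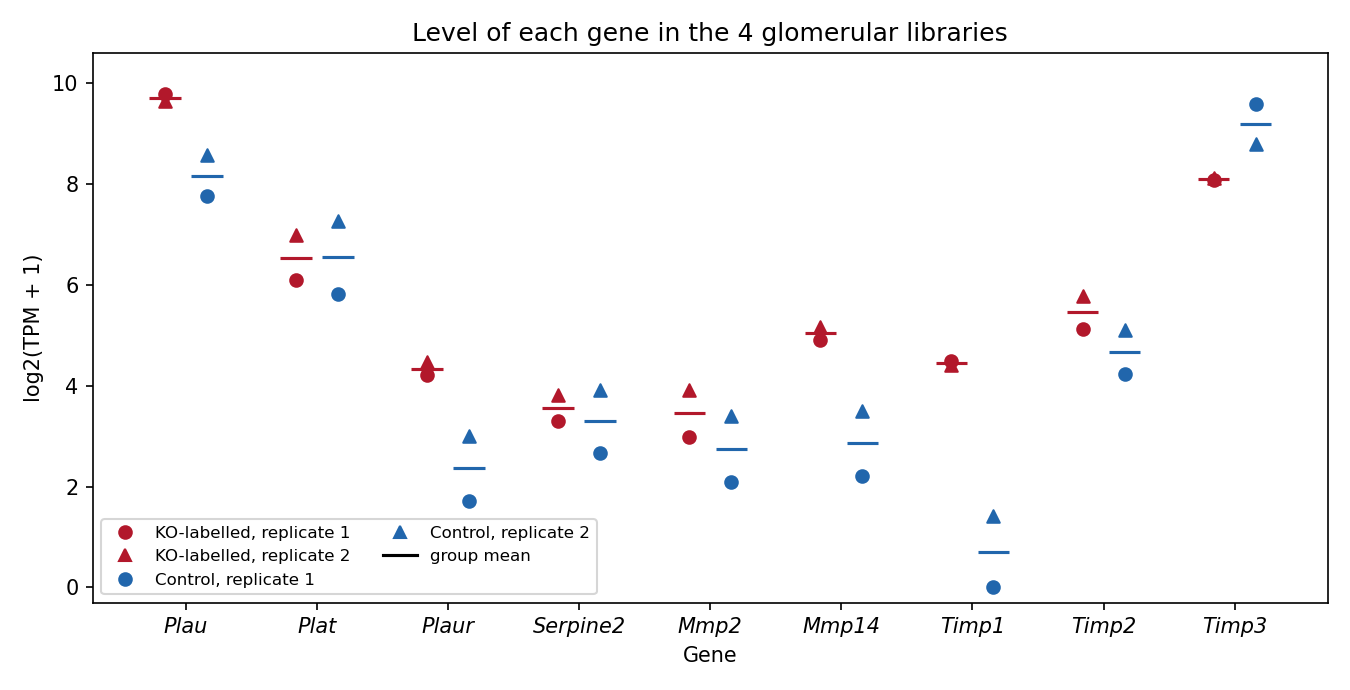
Level of each of the 9 genes as log2(TPM + 1) on the vertical axis in every library, with KO-labelled libraries in red at the left of each pair and controls in blue, circles for replicate 1, triangles for replicate 2 and bars for group means. Plau, Plaur, Mmp14, Timp1 and Timp2 lie higher in both KO-labelled libraries than in either control, Timp3 lies lower, and Plat, Serpine2 and Mmp2 overlap.

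Between the groups, 5 of the 9 genes were above both controls in both KO-labelled libraries, a pattern met by 36.7% of the 18612 genes tested. Timp3 was the 1 gene below both controls in both KO-labelled libraries, beside 14.3% of all genes tested. By limma on log2(TPM + 1), with p-values adjusted over all genes tested, 0 of the 9 genes passed an adjusted p of 0.05, and 0.00537% of all genes did. The log2 fold change was above 0 for 7 of the 9 genes, beside 66.6% of all genes, and below 0 for 2, beside 33.4%. At an unadjusted p under 0.05, 4 of the 9 were higher (Plau, Plaur, Mmp14 and Timp1), beside 13.4% of all genes, and Timp3 was lower, beside 4.46%. The median log2 fold change was 0.79 over the 9 genes and 0.17 over all genes tested. A model on the recovered reads (limma's voom) also called 0 of the 9. Without control replicate 2, 5 of the 9 passed (the same 4 higher genes and Timp3), together with 2224 of all genes.

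Plau encodes urokinase, the plasminogen activator that acts at cell surfaces. It was at 880 and 803 TPM in the KO-labelled libraries, against 216 and 382 TPM in the controls. Its values in both KO-labelled libraries were more than those in either control, and the difference in group means was 2.82-fold (log2 fold change 1.55 with an SE of 0.31; limma adjusted p = 0.112). The control libraries themselves were further apart than the KO-labelled ones, at a group mean of 299 ± 118 TPM, against 841 ± 54.5 TPM in the KO-labelled libraries (SD, n = 2 each). With 14909 and 15892 reads in the KO-labelled libraries and 3413 and 4834 in the controls, its level was well covered in every library. The gene lies on chromosome 14 at 20836660 to 20843385 on the plus strand of GRCm38.

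Plat encodes the tissue-type plasminogen activator, the secreted form that works best when bound to fibrin. It was at 67.2 and 126 TPM in the KO-labelled libraries and at 55.3 and 154 TPM in the controls. The groups overlapped fully, with replicate 2 higher in each (log2 fold change -0.01 with an SE of 0.54; limma adjusted p = 0.997). Pecam1, an endothelial adhesion molecule, was likewise higher in replicate 2 of each group, at 30.2 and 62.4 TPM in the KO-labelled libraries and 31.2 and 66.1 TPM in the controls. All 7 endothelial markers were detected, and their sum was 200 and 413 TPM against 266 and 600 TPM. This order was not particular to endothelial genes. The podocyte marker sum was 105 and 275 TPM against 320 and 717 TPM. The mesangial and smooth muscle marker sum was 200 and 243 TPM against 170 and 212 TPM. The macrophage and fibroblast marker sums, and that of the 2 neutrophil markers with values, were also higher in replicate 2 of each group. The parietal and proximal tubule sums were not higher in replicate 2 of both groups. The part of any cell type in the spread of Plat was not tested. The direction for Plat turned positive without control replicate 2 (0.72) and without KO replicate 1 (0.44). Relative to Plat, Plau was 13.1-fold and 6.38-fold more abundant in the KO-labelled libraries and 3.90-fold and 2.48-fold in the controls, so that ratio did not overlap between the groups.

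Plaur encodes the urokinase receptor, a lipid-anchored surface protein that binds urokinase. Plaur was at 17.5 and 21.2 TPM in the KO-labelled libraries and at 2.28 and 7.08 TPM in the controls. The KO-labelled values were close to each other and above both controls, from 327 and 463 reads in the KO-labelled libraries and 40 and 99 reads in the controls. The means differed 4.12-fold (log2 fold change 1.97 with an SE of 0.45; limma adjusted p = 0.129). The ratio of Plaur to Plau did not overlap between the groups, by a narrow margin, at 0.0198 and 0.0264 in the KO-labelled libraries against 0.0106 and 0.0185 in the controls. Macrophages also make this receptor, and their markers moved in the same direction. All 7 macrophage markers were higher in both KO-labelled libraries than in either control, a pattern met by 36.7% of all genes tested. Their sum was 565 and 650 TPM against 53.7 and 122 TPM, with none at 0. The part of macrophages in the Plaur difference was not tested.

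Serpine2 encodes protease nexin 1, a serpin that inhibits urokinase, tissue-type plasminogen activator and thrombin. It was at 8.88 and 13.0 TPM in the KO-labelled libraries and at 5.37 and 14.1 TPM in the controls. The groups overlapped (log2 fold change 0.26 with an SE of 0.46; limma adjusted p = 0.817), and the direction turned negative without control replicate 1 (-0.36). Urokinase transcript per Serpine2 transcript was 99.0 and 61.8 in the KO-labelled libraries and 40.1 and 27.0 in the controls, with no overlap. For Plat the same ratio was 7.56 and 9.67 in the KO-labelled libraries and 10.3 and 10.9 in the controls, so here the KO-labelled values were the lower ones.

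**Figure D2:**
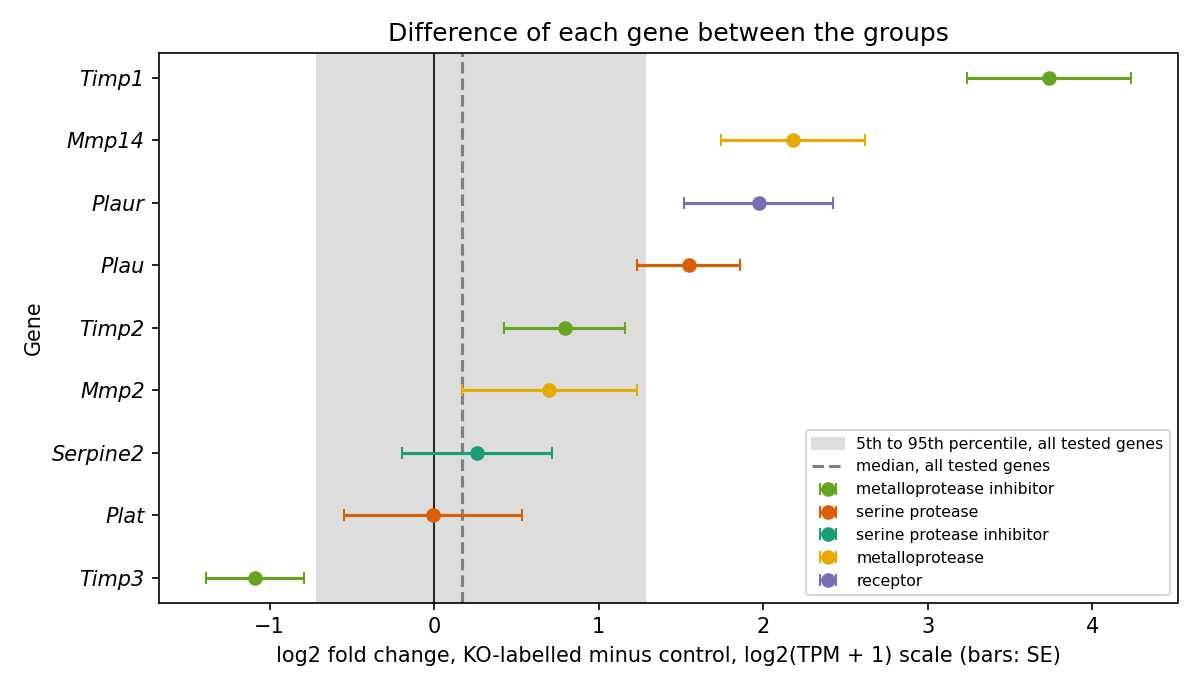
Log2 fold change of the 9 genes, KO-labelled minus control on the log2(TPM + 1) scale, on the horizontal axis with bars for the SE, coloured by role; the grey band spans the 5th to 95th percentile of all tested genes and the dashed line is their median of 0.17. Timp1, Mmp14, Plaur and Plau lie right of the band and Timp3 lies left of it, while the bars of Plat and Serpine2 cross 0.

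Mmp14 encodes the membrane-anchored metalloprotease MT1-MMP, which cleaves collagens at the cell surface and activates the proform of MMP2. It was at 29.2 and 34.8 TPM in the KO-labelled libraries and at 3.64 and 10.3 TPM in the controls. Both KO-labelled values were several times those of the controls, with means 4.59-fold apart (log2 fold change 2.18 with an SE of 0.44; limma adjusted p = 0.110). Its log2 fold change was higher than that of 99.0% of all genes tested. By the likeness of log2(TPM + 1) over the 4 libraries, the nearest genes were Bcl3, Cd68 and Tap1, with root mean square distances of 0.07, 0.11 and 0.13 on the log2 scale. Cd68, a lysosomal membrane protein abundant in macrophages, was at 32.2 and 32.4 TPM in the KO-labelled libraries and 4.04 and 9.67 TPM in the controls. Whether Mmp14 came from macrophages, whose markers moved with it, was not tested.

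Mmp2 encodes gelatinase A, a secreted enzyme that degrades collagen IV and denatured collagens. It was at 6.96 and 14.0 TPM in the KO-labelled libraries and at 3.28 and 9.60 TPM in the controls. The groups overlapped, since KO replicate 1 was below control replicate 2 (log2 fold change 0.70 with an SE of 0.53; limma adjusted p = 0.560). Without control replicate 1 the log2 fold change was 0.05. The 4 of 5 fibroblast markers with values summed to 29.3 and 173 TPM in the KO-labelled libraries and 7.27 and 27.4 TPM in the controls, none at 0, so their sum was likewise highest in KO replicate 2 and lowest in control replicate 1. Dcn, which encodes the proteoglycan decorin, did not share that order and was lowest in KO replicate 1, at 1.34 TPM against 1.79 and 1.76 TPM in the controls. Unlike Mmp2, the fibroblast sum was slightly higher in KO replicate 1 than in control replicate 2. Of its genes, Col3a1 and Pdgfra did share the full order of Mmp2 over the libraries. The 6 mesangial and smooth muscle markers summed to 200 and 243 TPM in the KO-labelled libraries and 170 and 212 TPM in the controls. That sum had the same order over the libraries as Mmp2, and of its genes only Pdgfrb shared it. The part of fibroblast or mesangial content in the Mmp2 values was not tested. The ratio of Mmp14 to Mmp2 was 4.19 and 2.48 in the KO-labelled libraries and 1.11 and 1.07 in the controls, with no overlap between the groups.

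Timp1 encodes an inducible secreted inhibitor of most soluble metalloproteases that inhibits MT1-MMP poorly. It was at 21.4 and 20.3 TPM in the KO-labelled libraries, against 0 and 1.68 TPM in the controls. In reads these were 136 and 151 against 0 and 8. The 0 in control replicate 1 allows up to 0.505 TPM by a floor of 3 reads and up to 0.621 TPM by the exact 95% Poisson interval. For the 8 reads of control replicate 2 the same interval was 0.727 to 3.32 TPM, and all of these limits cover counting error only. The log2 fold change was 3.74 with an SE of 0.50 (limma adjusted p = 0.0957), the largest in size of the 9 and above that of 99.9% of all genes tested. It was 5.82 in voom on the recovered reads, where no pseudocount of 1 TPM damps a low control level.

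The genes nearest to Timp1 over the 4 libraries were Serpina3n, Lbp and Lif, at root mean square distances of 0.37, 0.47 and 0.48 on the log2(TPM + 1) scale. Serpina3n, a secreted serpin of the acute phase, was at 24.0 and 23.6 TPM in the KO-labelled libraries and 0.507 and 2.45 TPM in the controls. Lbp, the lipopolysaccharide-binding protein, was at 17.7 and 13.0 TPM against 0.588 and 1.82 TPM, and the cytokine gene Lif at 13.0 and 12.5 TPM against 0.137 and 1.93 TPM. All 3 were thus low in both controls and lowest in control replicate 1. The 5 genes taken as markers of parietal epithelium, the lining of Bowman's capsule, were above both controls as well, beside 36.7% of all genes tested. They were Cldn1 and the keratin genes Krt7, Krt8, Krt18 and Krt19. Their sum was 735 and 475 TPM in the KO-labelled libraries and 155 and 180 TPM in the controls. Cldn1 made 45.9 and 46.9 TPM of it against 11.2 and 20.4 TPM, so the sum was mostly keratin transcript. The cells that made it were not resolved, and their part in the Timp1 difference was not tested.

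Timp2 encodes an inhibitor that also bridges MT1-MMP to the MMP2 proform during its activation. It was at 34.1 and 54.3 TPM in the KO-labelled libraries and at 17.8 and 33.5 TPM in the controls. The lowest KO-labelled value and the highest control value were nearly equal, and the groups did not overlap by a narrow margin (log2 fold change 0.79 with an SE of 0.37; limma adjusted p = 0.343). Mmp2 per Timp2 was 0.204 and 0.259 in the KO-labelled libraries and 0.185 and 0.287 in the controls, with overlap and a difference in mean log2 ratio of -0.0019. Mmp14 per Timp2 was 0.857 and 0.641 in the KO-labelled libraries and 0.205 and 0.308 in the controls, with no overlap.

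Timp3 encodes the TIMP that binds the extracellular matrix and also inhibits ADAM17 and several ADAMTS proteases. It was at 270 and 278 TPM in the KO-labelled libraries, against 769 and 444 TPM in the controls. The KO-labelled libraries were nearly equal and below both controls, and the control mean was 2.21-fold the KO-labelled mean (log2 fold change -1.09 with an SE of 0.30; limma adjusted p = 0.163). Leaving out control replicate 1, which had the most Timp3 and Kap, the log2 fold change was -0.69. Only 2.09% of all genes tested had a lower log2 fold change than Timp3. The gene lies on chromosome 10 at 86300372 to 86349506 on the plus strand, and 21.3% of its exon bases in GENCODE M21 are shared with Syn3 on the opposite strand. Syn3 was at 2.54 and 2.97 TPM in the KO-labelled libraries and 4.55 and 4.81 TPM in the controls, a small fraction of the level of Timp3. No exon base of the other 8 genes overlaps another gene.

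Proximal tubule transcripts moved in the same direction as Timp3. All 7 markers of that segment were lower in both KO-labelled libraries than in either control, beside 14.3% of all genes tested. Their sum was 1813 and 2252 TPM against 7514 and 4870 TPM. Lrp2, the endocytic receptor megalin, was at 363 and 415 TPM against 1453 and 997 TPM, so control replicate 1 was the highest for both genes. Cubn and Slc22a8 were instead highest in control replicate 2, with Cubn at 105 and 97.7 TPM in the KO-labelled libraries against 162 and 190 TPM, and Slc22a8 at 108 and 133 TPM against 267 and 346 TPM. Podocyte markers were also lower, 6 of 7 by the sign of the log2 fold change and 3 without overlap. Over all genes tested the shares were 33.4% and 14.3%. The podocyte markers were higher in control replicate 2 than in control replicate 1. The part of tubule content or of podocyte content in the Timp3 difference was not tested.

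**Figure D3:**
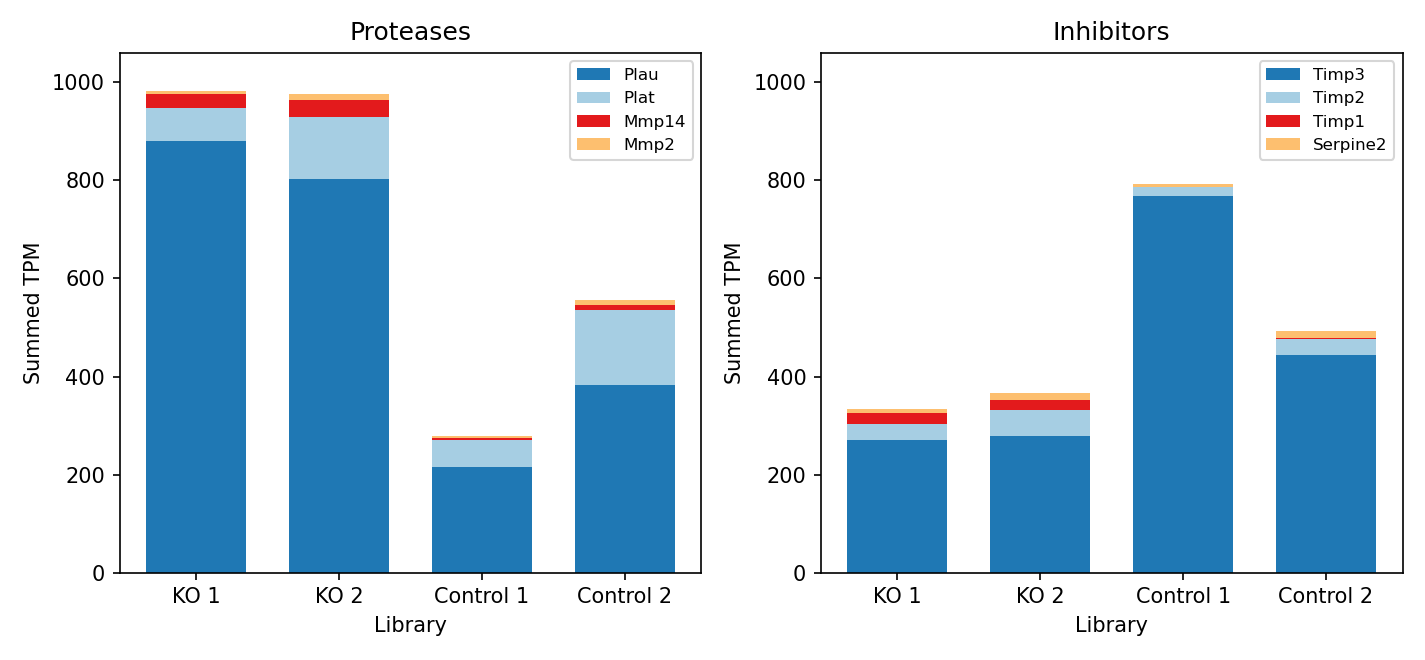
Summed TPM on the vertical axis of the 4 proteases (left panel) and the 4 inhibitors (right panel) in each library, KO-labelled libraries first, as bars stacked by gene. Plau makes most of the protease sum and Timp3 most of the inhibitor sum in every library; protease sums are 983 and 977 TPM in the KO-labelled libraries and 278 and 556 TPM in the controls.

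Taken by role, the summed TPM of the 4 proteases was 983 and 977 in the KO-labelled libraries and 278 and 556 in the controls. The summed TPM of the 4 inhibitors was 334 and 366 in the KO-labelled libraries and 792 and 493 in the controls. Proteases thus exceeded inhibitors 2.94-fold and 2.67-fold in the KO-labelled libraries, while the ratio was 0.351 and 1.13 in the controls. The log2 ratio averaged 1.49 ± 0.10 in the KO-labelled libraries and -0.67 ± 1.19 in the controls (SD, n = 2 each), a difference of 2.16. The difference was 1.31 without control replicate 1. It is a score over chosen genes and was not tested, and it rests on Plau and Timp3, which dominate the sums. It thus mostly sets a serine protease against an inhibitor of metalloproteases. Within the arms no such crossing was seen. Plau exceeded Serpine2, and the TIMP sum exceeded that of Mmp2 and Mmp14, in every library. These are transcript sums, which count no protein and no activity.

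Within the metalloprotease arm, Mmp2 and Mmp14 together made 0.111 and 0.138 of the TIMP sum in the KO-labelled libraries and 0.0088 and 0.0415 in the controls. The TIMPs therefore exceeded these enzymes in transcript level in every library. Timp3 made 82.9% and 78.8% of the TIMP sum in the KO-labelled libraries and 97.7% and 92.7% in the controls. Timp2 per Timp3 was 0.126 and 0.195 in the KO-labelled libraries and 0.0231 and 0.0754 in the controls. In the serine protease arm, Plau made 92.9% and 86.5% of the sum of Plau and Plat in the KO-labelled libraries and 79.6% and 71.3% in the controls. Except for Plat to Serpine2, each pair of genes reported without overlap of its ratio holds a gene that itself did not overlap. How often ratios of other gene pairs do not overlap was not computed.

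**Figure D4:**
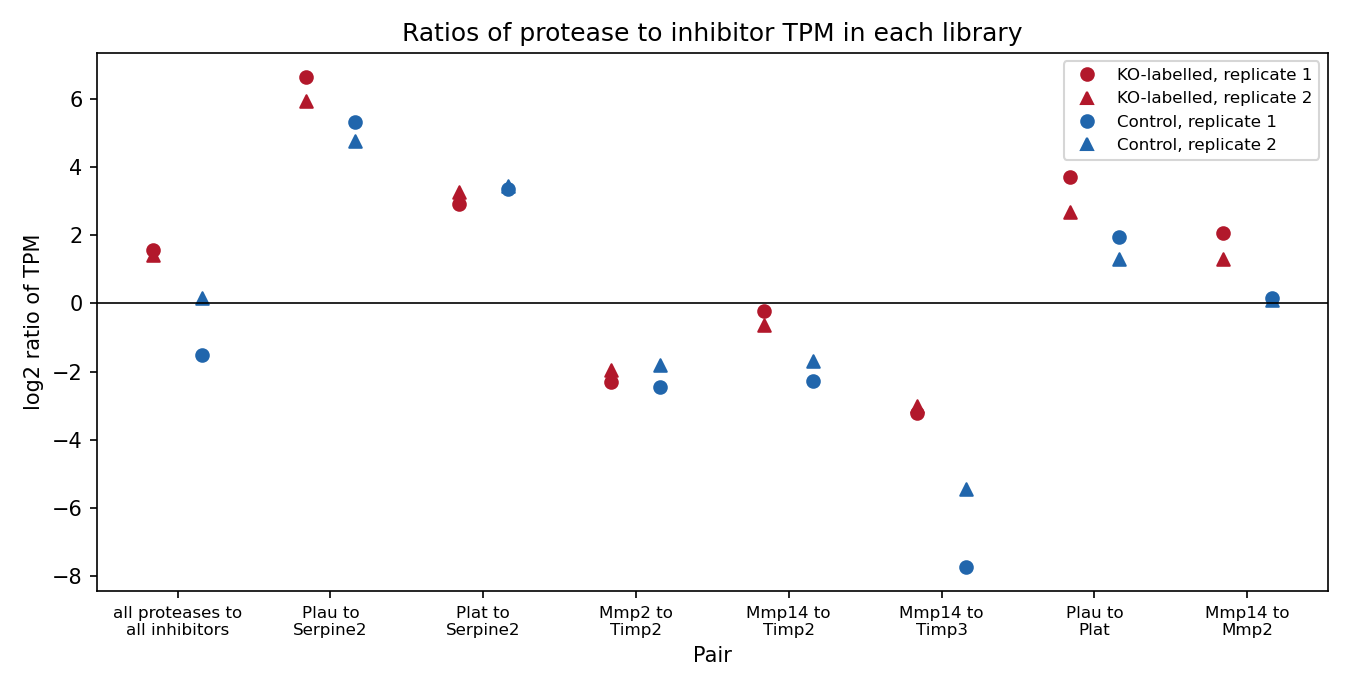
Log2 ratio of TPM on the vertical axis for 8 pairs of genes or sums, in KO-labelled libraries (red, left of each pair) and controls (blue), with circles for replicate 1 and triangles for replicate 2. The ratios of Mmp14 to Timp2, Mmp14 to Timp3, Plau to Serpine2 and Mmp14 to Mmp2 are higher in both KO-labelled libraries, whereas Mmp2 to Timp2 overlaps.

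The wider protease network was read from 85 further genes, of which 77 had values and 57 were tested. By limma 0 of the 57 passed the adjusted threshold, and voom also called 0. At an unadjusted p under 0.05, 16 were higher and 3 lower, and 21 were above both controls in both KO-labelled libraries and 6 below. Over all genes tested, 13.4% were higher and 4.46% lower at that p, and 36.7% were above and 14.3% below without overlap. The median log2 fold change of the 57 was 0.31, beside 0.17 over all genes. Without control replicate 2, 14 of the wider genes passed the adjusted threshold, with 2224 of all genes.

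Among 15 tested genes of the plasminogen system, 4 were higher at an unadjusted p under 0.05 and 1 was lower. The shares of all genes tested were 13.4% and 4.46%. Anxa2 and S100a10 form a surface complex that binds plasminogen. Anxa2 was at 92.3 and 100.3 TPM in the KO-labelled libraries against 18.1 and 44.8 TPM in the controls, and S100a10 at 166 and 185 TPM against 59.7 and 86.4 TPM. Serpinb6a, an intracellular serpin, had a log2 fold change of 1.35, and Lrp1, which clears protease and serpin complexes, one of 0.94 with overlapping groups. The lowest log2 fold changes were those of Klkb1, which encodes plasma prekallikrein (-1.14), Serpinf2, the plasmin inhibitor (-0.44), and Vldlr, a receptor for the same complexes (-0.41). Serpinf2 overlapped between the groups, at 153 and 155 TPM in the KO-labelled libraries against 479 and 91.6 TPM in the controls. Plg, the plasminogen gene itself, had 2 and 4 reads in the KO-labelled libraries and 7 and 2 reads in the controls, so its transcript was at the floor of detection in all 4.

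Of 10 tested other MMPs, 4 were higher at an unadjusted p under 0.05, beside 13.4% of all genes. None was lower, beside 4.46%, a share at which few are expected in so short a list. Mmp7, the epithelial enzyme matrilysin, was at 12.2 and 8.17 TPM in the KO-labelled libraries and 0 and 1.05 TPM in the controls, or 93 and 73 reads against 0 and 6 (log2 fold change 2.94 with an SE of 0.45; limma adjusted p = 0.0988). Mmp12, the macrophage elastase, was at 3.57 and 3.90 TPM against 0.0620 and 1.65 TPM, and Mmp27 at 2.34 and 1.84 TPM against 0 and 0.339 TPM. Mmp23 (log2 fold change -0.05) and Mmp28 (-0.31) overlapped between the groups. Mmp9, which encodes gelatinase B, was below the level tested, at 0.434 and 0.878 TPM in the KO-labelled libraries and 0.0422 and 0.423 TPM in the controls.

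The ADAM and ADAMTS families, which shed surface proteins and cleave proteoglycans, had 18 tested genes. Of these, 5 were higher at an unadjusted p under 0.05, beside 13.4% of all genes, and none lower, beside 4.46%. Adamts1 was the most abundant of them in the KO-labelled libraries, at 253 and 261 TPM, against 41.8 and 80.0 TPM in the controls (log2 fold change 2.13 with an SE of 0.32; limma adjusted p = 0.0988). Adamts4, an aggrecan-cleaving relative, was at 3.31 and 5.32 TPM against 0.186 and 1.28 TPM, and Adam8, a leukocyte sheddase, at 5.09 and 8.07 TPM against 0.483 and 3.11 TPM. The sheddase gene Adam10 was at 85.8 and 76.8 TPM in the KO-labelled libraries and 53.6 and 54.7 TPM in the controls (log2 fold change 0.58). Adam17, the TNF-converting enzyme that TIMP3 inhibits, was nearly level at 26.2 and 26.0 TPM against 23.8 and 25.6 TPM (0.08, below the median of all genes). The lowest log2 fold changes among those tested were -0.23 for Adamts15, -0.08 for Adamts6 and -0.05 for Adam9, all with overlap. Below the level tested, Adamts17 had 8 and 22 reads in the KO-labelled libraries and 52 and 76 in the controls, and its mean was 0.241 TPM in the KO-labelled libraries against 1.42 TPM in the controls. Adamts20 had 2 and 3 reads in the KO-labelled libraries and 8 and 8 in the controls. Neither gene's groups overlapped, and both were lower in the KO-labelled libraries. More genes of the wider lists below that level were higher without overlap. They were Mmp3, Mmp8, Mmp9, Mmp21, Mmp24, Mmp25, Adam33, Adamts13, Pcolce2 and A2m, with 0 to 13 reads in the controls. The share over all genes below that level was not computed.

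Of 4 other metalloproteases tested, 2 were lower at an unadjusted p under 0.05, beside 4.46% of all genes. The meprin genes Mep1a and Mep1b, of the proximal tubule brush border, were lower in both KO-labelled libraries, as were the 7 proximal tubule markers above. Mep1a was at 158 and 191 TPM against 752 and 317 TPM in the controls, and Mep1b at 0.585 and 1.96 TPM against 28.1 and 6.91 TPM. Bmp1, the procollagen C-proteinase (log2 fold change 1.03), and Mme, the peptidase neprilysin (0.37), overlapped between the groups. Of 10 tested other inhibitors and regulators, 3 were higher at an unadjusted p under 0.05 and none lower, beside 13.4% and 4.46% of all genes. The 3 were Spock2, a matrix proteoglycan (0.99), Pcolce, the enhancer of procollagen C-proteinase (0.49), and the thrombospondin gene Thbs1 (0.48). Spock3, below the level tested, was at 0.116 and 0.297 TPM in the KO-labelled libraries and 1.06 and 0.990 TPM in the controls, or 5 and 15 reads against 43 and 32. Timp4 was at 0.901 and 0.690 TPM in the KO-labelled libraries and 1.12 and 1.52 TPM in the controls, and Tfpi2, a Kunitz-type inhibitor of plasmin, at 4.16 and 6.78 TPM against 7.87 and 14.2 TPM. Reck, a membrane-anchored inhibitor of several metalloproteases, was at 4.24 and 6.45 TPM in the KO-labelled libraries and 3.38 and 3.84 TPM in the controls. Pzp, of the alpha-2-macroglobulin family, was at 2.03 and 2.76 TPM in the KO-labelled libraries and 44.4 and 2.71 TPM in the controls.

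**Figure D5:**
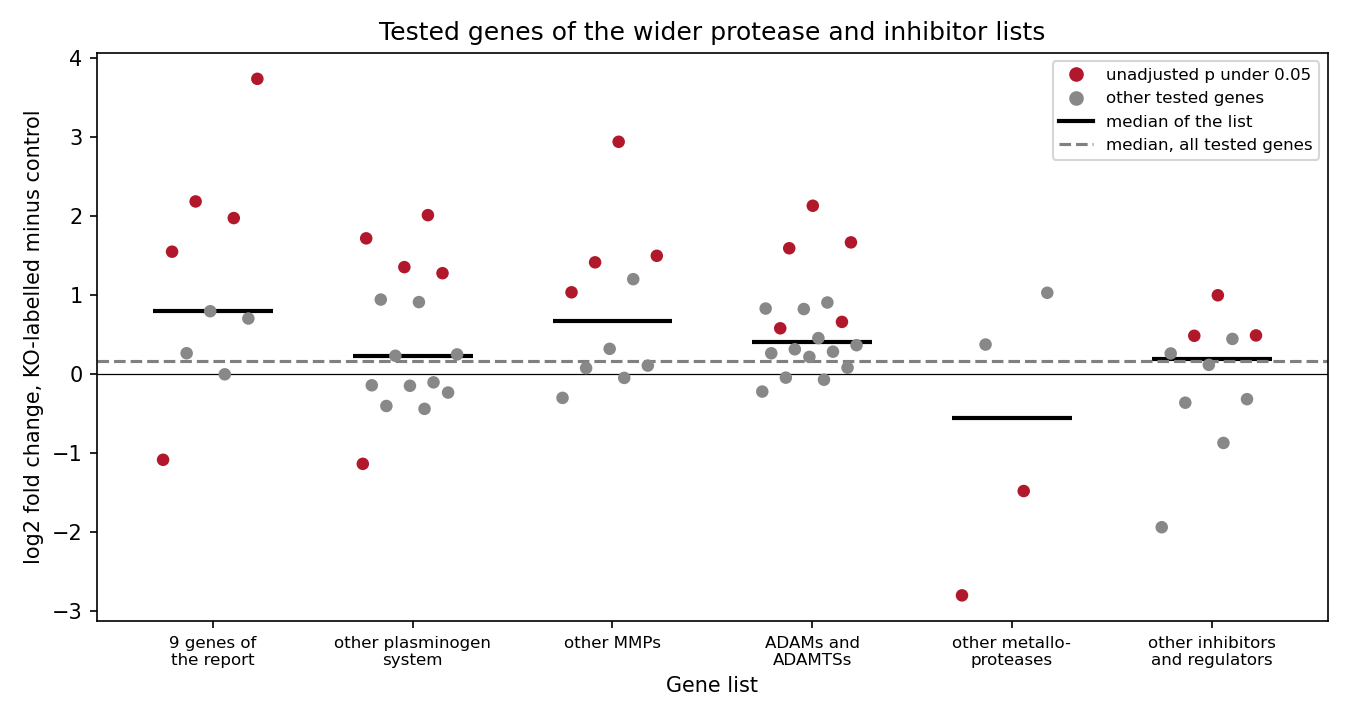
Log2 fold change, KO-labelled minus control, on the vertical axis for every tested gene of 6 lists, with red points at an unadjusted p under 0.05, black bars for list medians and a dashed line for the median of all tested genes, 0.17. Most red points lie above the dashed line, and those below it are Timp3, Klkb1, Mep1a and Mep1b.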

How the data were processed

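Libraries of poly(A) RNA came from glomeruli in 2 KO-labelled and 2 control samples. The deposited table holds TPM, computed by the authors, for 22809 genes, and each of its 4 columns sums to 1000000 and carries the name of its sample. Per the submitters' processing notes, the build was GRCm38.p6 and the tools, with no role stated, were STAR 2.7.9, featureCounts 2.0.0, fastp 0.20 and DESeq2 1.30.1; annotation and strand setting were not given in the sources used here. Multiplying TPM by the exon length in GENCODE M21 gave whole reads for 22176 genes (97.2%, relative tolerance 1e-06), including all 9 genes reported. Symbols were found for 22762 genes.

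Genes with a mean of at least 1 TPM (18612; 4197 left out) were tested with limma 3.58.1 in R 4.3.3 (lmFit, eBayes with trend) on log2(TPM + 1), which understates the change of low genes, with Benjamini-Hochberg adjustment over all of them and a threshold of 0.05. With 2 against 2, an exact permutation test cannot go below p = 0.333 two-sided and was not used. Libraries are separate pools of mice, so the spread between replicates includes that between pools. The test was run on simulated reads with known changes, at a spread fixed for all genes and not estimated from these libraries. That run therefore does not measure how many changes were missed here. The members and lists were chosen with earlier results of these data known. Beside the 9 genes and Hdac1 and Hdac2, the rule named up to 3 genes with the highest and 3 with the lowest log2 fold change of each wider list. It also named 12 network genes regardless of value, and the 3 genes nearest in level to the 2 members with the largest change. Kap, Syn3, Pecam1, Lrp2, Cubn, Slc22a8, Dcn, Cd68, Pdgfrb, Cldn1, Adamts17, Adamts20 and Spock3 are given as context, chosen after values were seen. So are Col3a1, Pdgfra, Mmp3, Mmp8, Mmp21, Mmp24, Mmp25, Adam33, Adamts13, Pcolce2 and A2m. A result under this rule is not reported here. Alternatives were 14 other settings of pseudocount, filter, scaling, model and libraries. Figures and sums used Python 3.11.15, pandas 2.3.3, numpy 2.4.6, scipy 1.17.1 and matplotlib 3.10.9.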

Additional observations from a re-analysis of the deposited data

How the results depend on the processing

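Over 14 other settings, Plau, Plaur, Mmp2, Mmp14, Timp1, Timp2 and Timp3 kept their direction in all 14. Plat was reversed without KO replicate 1 (log2 fold change 0.44) and without control replicate 2 (0.72), and Serpine2 without control replicate 1 (-0.36). On leaving out each library in turn, Plat ranged from -0.74 to 0.72 and Serpine2 from -0.36 to 0.88. Over all settings the log2 fold change ranged from 1.14 to 1.96 for Plau, 1.32 to 2.62 for Plaur, 1.54 to 2.83 for Mmp14, 2.16 to 5.82 for Timp1 and -1.49 to -0.69 for Timp3. The count of the 9 genes past the adjusted threshold was 0 under the other settings and ranged from 0 to 5 when each library was left out, and the wider count ranged from 0 to 14. The count of all genes, 1, was 0 with quantile normalization, limma without trend and voom, and ranged from 0 to 2224 when each library was left out. The count of the 9 genes higher at an unadjusted p under 0.05, 4, ranged from 4 to 7 on leaving out a library. Leaving out a library leaves 1 sample in a group, which is then assumed to vary like the other group. The log2 protease to inhibitor difference was between 1.31 and 3.00. Median-ratio scaling moved the median of all genes by 0.20 and gave log2 fold changes of 1.31 for Plau, 1.78 for Plaur, 1.98 for Mmp14, 3.64 for Timp1 and -1.33 for Timp3. With the replicate number as a block, 0 of the 9 genes passed and 6 were higher at an unadjusted p under 0.05. Deviations of same-numbered libraries had a correlation of 0.14 across 18612 genes, which are not independent, and with 2 pairs the numbers are not taken to pair the samples. The depth limits Timp1, Mmp7, Mmp9 and Mmp27 in the controls, and Adamts20 and Plg in all 4 libraries, where 0 to 8 reads were counted. It also limits Mmp12 and Adamts4, with 3 and 6 reads in control replicate 1. The same holds for Spock3 and Adamts17, with 5 and 8 reads in KO replicate 1.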
